A study of Mus musculus with 13 samples.

Results

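The 10 genes that mark the scavenging phenotype of liver sinusoidal endothelium were measured in whole-liver mRNA of 13 mouse liver samples: Stab1, Stab2, Clec4g, Lyve1, Fcgr2b, Dnase1l3, Oit3, Mrc1, F8 and Gata4. They were taken by symbol from the gene identifiers of the count table, and all 10 were found among its 22048 genes and passed the low-count filter, as did 13831 genes in all. The 6 control livers carried no depletion (3 male, 3 female), the 4 depleted livers lacked hepatic stellate cells by label (1 male, 3 female), and the 3 hepatectomised livers were not depleted and were taken 72 h after partial hepatectomy (2 male, 1 female). How the stellate cells were removed, and the strain and age of the mice, are not given in the sources used here, and no sham operation is named for the controls. The number of reads assigned to genes ran from 35360991 to 51008737 per library.

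Liver sinusoidal endothelial cells are fenestrated cells that clear waste macromolecules from portal blood by receptor-mediated endocytosis. The stabilins Stab1 and Stab2 are large scavenger receptors, with Stab2 as the main hyaluronan clearance receptor, the mannose receptor Mrc1 takes up glycoproteins and collagen fragments, and the inhibitory Fc gamma receptor Fcgr2b takes up small immune complexes. Their identity is known to depend on the transcription factor Gata4 and on BMP9 (gene Gdf2), a ligand made in the liver mainly by stellate cells that signals through the endothelial receptor ALK1 (gene Acvrl1).

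The sequences just upstream of 3 of these genes are shown because GATA and ETS factors are the classical regulators of endothelial genes and because the results set Clec4g beside the stabilins. RefSeq promoter sequences on GRCm38.p6 were at hand for 6 of the 10 genes (Stab1, Stab2, Clec4g, Fcgr2b, Mrc1 and F8), and 250 bases upstream of each start were searched on both strands. The GATA words were AGATAA or AGATAG and the variants TGATAA or TGATAG. The ETS words were ACCGGAA or CCGGAAG and the variants ACAGGAA or CAGGAAG. No 2 matches overlapped. The sequences below run 5′ to 3′ on the gene's own strand, all 3 genes lying on the minus strand, with the matched words in capitals: chr8:3720652-3720901 for Clec4g, chr14:31168642-31168891 for Stab1 and, trimmed to what lies outside the gene's span in the count table, chr10:87008026-87008192 for Stab2.
Clec4g: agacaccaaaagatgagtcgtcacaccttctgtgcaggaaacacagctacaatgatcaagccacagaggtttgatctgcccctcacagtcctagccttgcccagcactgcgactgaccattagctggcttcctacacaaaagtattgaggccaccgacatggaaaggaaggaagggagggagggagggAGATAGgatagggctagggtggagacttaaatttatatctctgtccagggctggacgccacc
Stab1: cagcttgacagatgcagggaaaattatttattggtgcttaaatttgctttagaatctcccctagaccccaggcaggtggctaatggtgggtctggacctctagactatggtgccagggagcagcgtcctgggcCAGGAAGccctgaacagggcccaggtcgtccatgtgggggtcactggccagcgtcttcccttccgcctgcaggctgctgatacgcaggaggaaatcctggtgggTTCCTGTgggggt
Stab2: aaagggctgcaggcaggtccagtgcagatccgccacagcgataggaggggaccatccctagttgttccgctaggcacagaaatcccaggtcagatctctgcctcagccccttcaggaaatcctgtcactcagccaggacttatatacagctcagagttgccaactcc

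Clec4g held a GATA word from -62 to -57 relative to the start, and F8 held one from -121 to -116. The windows of F8 and Fcgr2b lie wholly inside the span that the count table gives these genes, so the F8 match is inside the gene. Stab1 held an ETS word from -117 to -111 and, as its reverse complement, from -13 to -7, and Mrc1 held 2 as well. No word of either kind was found in the windows of Stab2 and Fcgr2b. GATA words thus occurred in 2 of 6 windows, against 26.6% of all 32817 promoters of the same length, and ETS words in 2 of 6, against 21.6%. These are matches of letters only, given as a description.

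Control 6, hepatectomised liver 2 and depleted liver 4 stood apart and bear on every value below. Control 6 was the lowest control for 10 of 10 of these genes, at 9.91% (Lyve1) to 62.9% (Gata4) of the median of the other controls. It was also below every other control for 14 of 15 pan-endothelial genes (median 37%), 9 of 10 Kupffer cell genes (14.6%) and 10 of 10 stellate cell genes (42%), and for 3 of 5 hepatocyte genes (81.1%). Hepatectomised liver 2 was the lowest of its group for 9 of 10 scavenger identity genes and for 15 of 15 pan-endothelial genes. Depleted liver 4 was the lowest of its group for 8 of 10, and its stellate cell genes stood at a median of 2320% of those of the other depleted livers. Lrat, the retinol-esterifying enzyme of stellate cells, was at 2.54 CPM (library-scaled counts, with TMM factors) in the highest depleted liver, and the group's lowest and median values were 0.134 and 0.166 CPM, against 7.77 to 67.4 CPM in controls. In whole liver, fewer cells of a type and less RNA per cell cannot be told apart. No source says whether livers came from separate litters or days, so p-values measure the spread between these livers.

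Read per kilobase of gene length (RPKM, from the length in the count table), Clec4g was the most abundant of the 10 in controls, with a median of 24.5 RPKM, followed by Dnase1l3 at 16.5, Oit3 at 12.01, Fcgr2b at 10.6, Mrc1 at 9.69 and Stab2 at 8.50. Lyve1 at 5.41, Stab1 at 4.65, Gata4 at 4.19 and F8 at 2.77 RPKM closed the order. The control ranges of neighbours in this order overlapped throughout. In depleted livers Dnase1l3 came first at 38.0 RPKM and Mrc1 second at 23.8, and Clec4g stood at 13.2, below Fcgr2b and Lyve1. After hepatectomy Clec4g was again first at 17.8 RPKM and F8 last at 0.841.

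**Figure D1:**
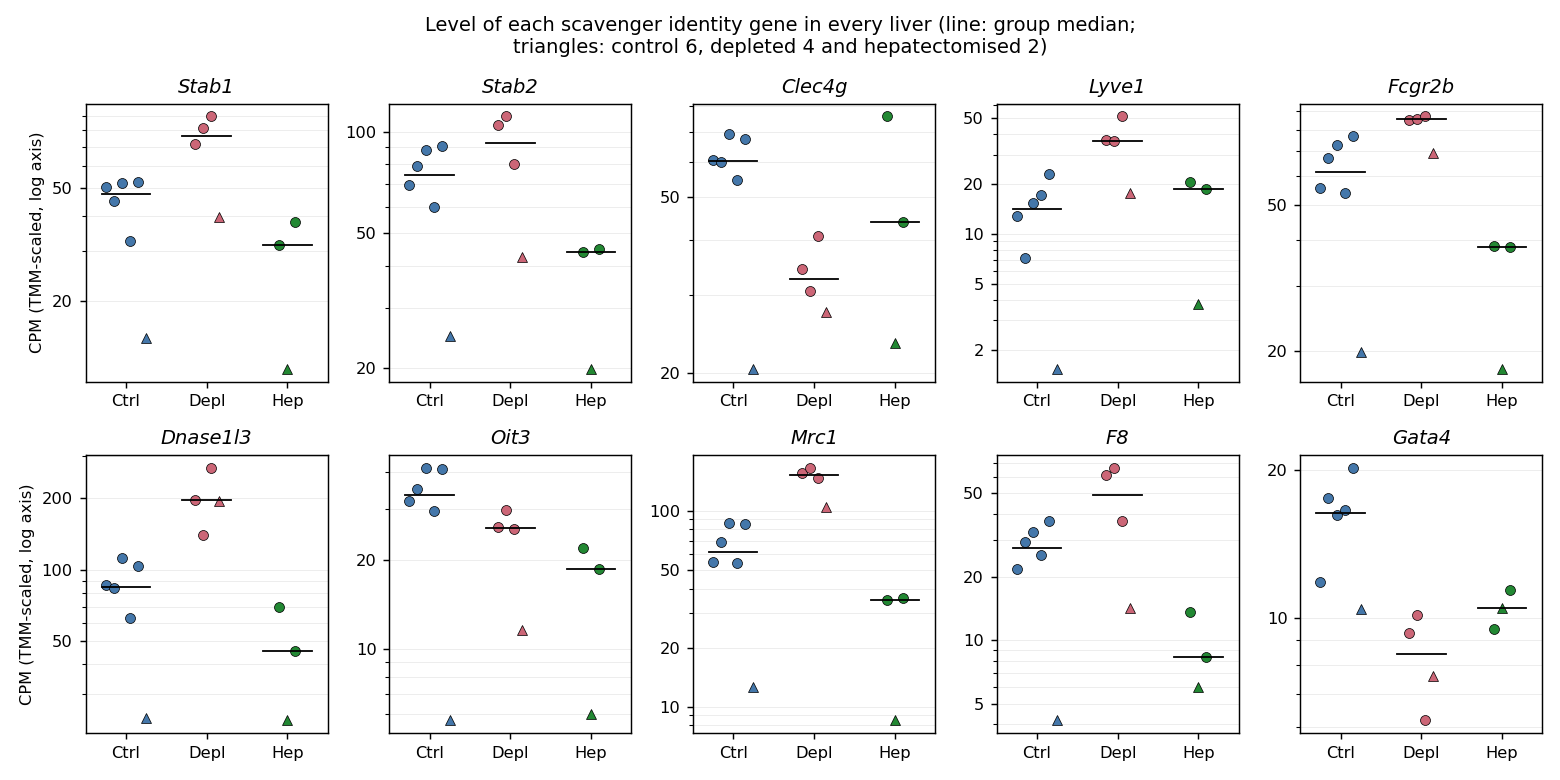
Level of each of the 10 scavenger identity genes in every liver, as TMM-scaled CPM on a log axis; Ctrl, Depl and Hep are the 6 control, 4 depleted and 3 hepatectomised livers, lines are group medians and triangles mark control 6, depleted 4 and hepatectomised 2. The depleted livers lie above every control for Dnase1l3 and Mrc1 and below every control for Gata4, and the triangles sit low in most panels. Of all genes, 16.5% lie above and 11.9% below every control in the same way.

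In depleted against control livers, 1 of the 10 scavenger identity genes was called higher and 1 lower. Dnase1l3 rose 2.53-fold and Gata4 fell to 0.501 of its control level (the 2 genes called in edgeR's quasi-likelihood test at an adjusted p under 0.05 over all genes), Mrc1 and Lyve1 had positive estimates that narrowly missed the threshold, and the estimate for Clec4g was negative. The change called in 1 of 10 upward is to be read against 18.9% of all genes called higher, and the 1 of 10 called lower against 15%, or 33.9% called in either direction. These shares are near the background, so the count itself sets the 10 genes apart in neither direction. Their median log2 difference was 0.60, against -0.03 for all genes.

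Dnase1l3 (ENSMUSG00000025279.7, chr14:7964533-7994573, minus strand) encodes a secreted DNase that digests DNA in chromatin and microparticles. It stood at 197, 141, 268 and 194 CPM in depleted livers 1 to 4, against a lowest, median and highest control of 23.8, 85.0 and 112 CPM. Every depleted liver was above every control. This held for 2 of the 10 genes, Dnase1l3 and Mrc1, and for 16.5% of all genes, and the reverse held for 1, Gata4, and for 11.9% of all genes. The log2 difference was 1.34 ± 0.39 (SE, with a 95% interval of 0.50 to 2.18, adjusted p = 0.0178). It was 1.02 (adjusted p = 0.145) without depleted liver 3, the highest. That liver is also the only male of its group, and calls among all genes fell from 4692 to 2960 without it.

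Mrc1 (ENSMUSG00000026712.3, chr2:14229392-14332057, plus strand) stood at 156, 165, 147 and 104 CPM in the depleted livers and at 12.5, 61.7 and 86.6 CPM in the lowest, median and highest control, again with no overlap. The log2 difference of 1.18 ± 0.44 missed the threshold with all 13 libraries (adjusted p = 0.0581). Without control 6 it was 1.00 ± 0.34 and passed (adjusted p = 0.0393), where 18.4% of all genes were called higher and 14.5% lower. It also passed without hepatectomised liver 2 (adjusted p = 0.0298) and without depleted liver 4 (adjusted p = 0.0486), and was farthest from passing without depleted liver 3 (0.92, adjusted p = 0.273). Mrc1 is also expressed by Kupffer cells and other macrophages.

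Lyve1 (ENSMUSG00000030787.3, chr7:110850607-110862953, minus strand), a hyaluronan-binding receptor shared with lymphatic endothelium and some macrophages, varied most among controls, from 1.53 through a median of 14.1 to 23.0 CPM. Depleted livers 1 to 3 stood at 36.8, 36.3 and 51.3 CPM, above every control, and depleted liver 4 at 17.7 CPM lay within the control range. The log2 difference was 1.51 ± 0.58 (adjusted p = 0.0624). It passed without depleted liver 4 (adjusted p = 0.0375), without hepatectomised liver 2 (adjusted p = 0.0458) and when control 6 and hepatectomised liver 2 were both left out (1.24 ± 0.35, adjusted p = 0.0189), a setting chosen after the data were seen in which 19.5% of all genes were called higher and 14.9% lower. Without depleted liver 3, the highest and the only male of its group, the estimate was 0.81 (adjusted p = 0.42).

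Clec4g (ENSMUSG00000074491.7, chr8:3707064-3720651, minus strand), the C-type lectin LSECtin that marks sinusoidal endothelium in liver, pointed the other way. It stood at 34.5, 30.7, 40.8 and 27.5 CPM in the depleted livers. The 5 controls other than control 6 lay between 54.5 and 69.3 CPM, above all 4 depleted livers, whereas control 6 at 20.5 CPM lay below them. The log2 difference was -0.74 ± 0.35 with all libraries (95% interval -1.51 to 0.03, adjusted p = 0.128), -0.89 ± 0.27 without control 6 (adjusted p = 0.0235) and -0.86 ± 0.27 in a fit with the replicate number as a block (adjusted p = 0.0473, with 12.1% of all genes called lower). Replicate numbers 5 and 6 occur only among controls, so the block gives controls 5 and 6 no weight in the group difference. The block fit is thus not independent of leaving out control 6. Clec4g also passed without both low libraries (-0.88 ± 0.16, adjusted p = 0.00138) and among female livers alone (-1.05, adjusted p = 0.00435).

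Gata4 (ENSMUSG00000021944.13, chr14:63198922-63271692, minus strand), the zinc-finger transcription factor required for the discontinuous sinusoidal phenotype and present in stellate cells as well, was lower in every depleted liver, at 9.30, 10.1, 6.18 and 7.60 CPM, than in any control, at 10.4, 16.4 and 20.2 CPM for the lowest, median and highest. The log2 difference was -0.996 ± 0.17 (adjusted p = 0.000668). It stayed between -1.07 and -0.93 when each library was left out in turn.

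Neither stabilin passed the test. Stab1 (ENSMUSG00000042286.11, chr14:31139013-31168641, minus strand) stood at 71.4, 81.6 and 89.7 CPM in depleted livers 1 to 3, above the highest control at 52.5 CPM, and at 39.6 CPM in depleted liver 4. Its log2 difference was 0.75 ± 0.38 (adjusted p = 0.156). Stab2 (ENSMUSG00000035459.13, chr10:86841198-87008025, minus strand) stood at 105, 111, 80.3 and 42.6 CPM, overlapping controls at 24.9 to 90.8 CPM, and its log2 difference was 0.23 ± 0.35 (95% interval -0.54 to 1.00).

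Fcgr2b (ENSMUSG00000026656.13, chr1:170958617-170976547, minus strand) was narrow in range in depleted livers, at 85.2, 85.9, 87.3 and 69.2 CPM, next to controls between 19.8 and 77.1 CPM. The difference was 0.46 ± 0.31 on the log2 scale (adjusted p = 0.279). Fcgr3, an activating Fc receptor with a near-copy of the Fcgr2b extracellular part, rose by 3.52 ± 0.47 in the same comparison (adjusted p = 0.000168), and how reads common to both genes were assigned is not given in the sources used here. B cells, which also express Fcgr2b, had 7 of 7 marker genes called higher, with their summed level at 25.5 to 39.5 CPM in depleted livers and 4.44 to 7.84 CPM in controls. Their part in the Fcgr2b level was not tested.

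F8 (ENSMUSG00000031196.11, chrX:75172715-75382615, minus strand), coagulation factor VIII, which the liver makes in its endothelium, stood at 61.3, 66.3 and 37.0 CPM in depleted livers 1 to 3 and 14.2 CPM in depleted liver 4, with controls at 4.17 to 37.1 CPM. Oit3 (ENSMUSG00000009654.4, chr10:59422958-59441778, minus strand), a zona pellucida domain protein enriched in these cells, stood at 26.0, 29.7, 25.6 and 11.5 CPM against a median control of 33.5 CPM. Neither difference passed, at 0.75 ± 0.51 (adjusted p = 0.282) for F8 and -0.45 ± 0.48 (adjusted p = 0.511) for Oit3.

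**Figure D2:**
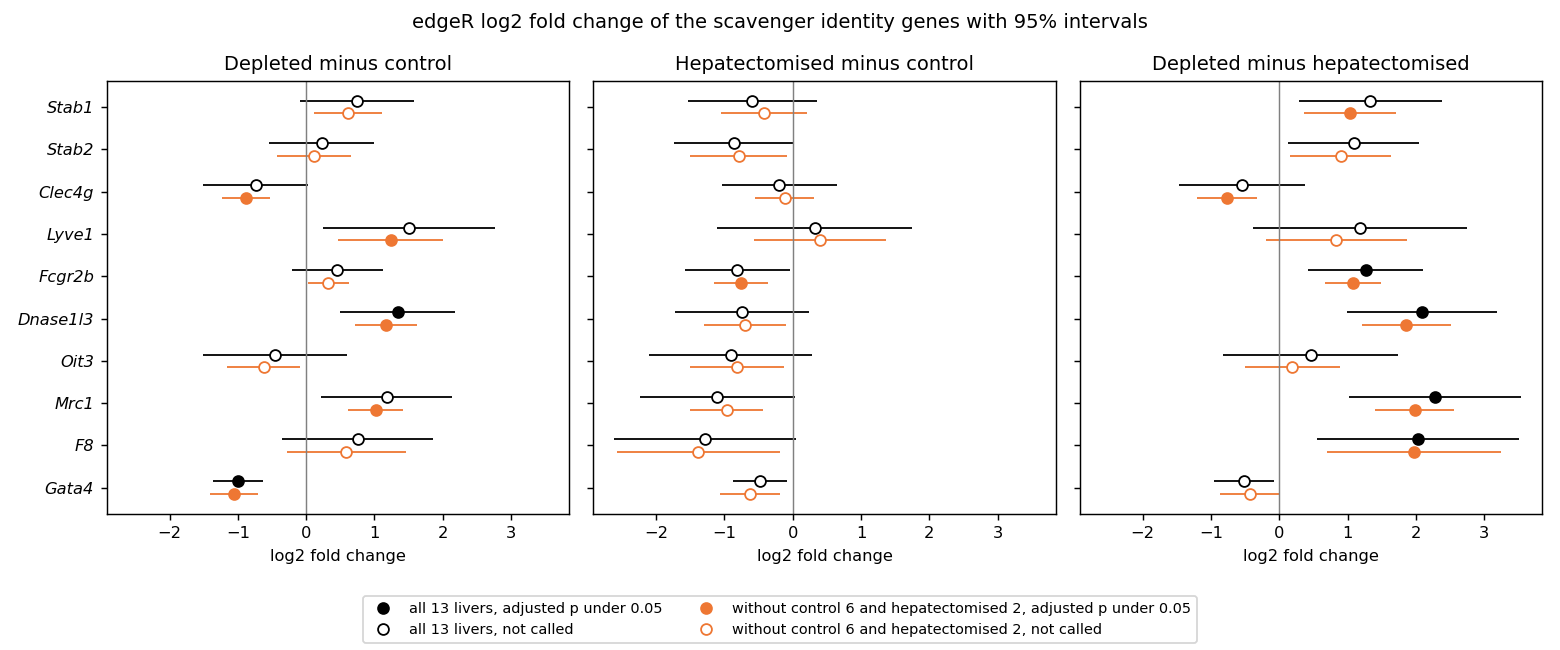
Log2 fold change of each scavenger identity gene in the 3 comparisons between groups, with bars for 95% intervals; black uses all 13 libraries, orange leaves out control 6 and hepatectomised 2, and filled points have an adjusted p under 0.05. In depleted against control livers, Dnase1l3 and Gata4 are filled in both settings, and Clec4g, Lyve1 and Mrc1 only without the low libraries.

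The genes were next read against the general endothelial signal of the same liver, as log2 CPM minus the mean log2 CPM of 15 pan-endothelial genes (junction, receptor and transcription factor genes such as Pecam1, Egfl7 and Robo4). Of these 15, 7 were called higher in depleted livers and 0 lower, with a median log2 difference of 0.79. The estimates of Clec14a (-0.46), Eng (-0.43), Ptprb (-0.21) and Tek (-0.01) were below 0 and not called. Eng, a co-receptor for BMP9, was called lower without control 6 (-0.58, adjusted p = 0.0449), with the replicate block (-0.66, adjusted p = 0.0281) and without both low libraries (-0.57, adjusted p = 0.0213), so the reference list holds genes estimated in both directions. On this relative scale Clec4g was tight in controls, at 1.90 to 2.09, control 6 included, and lay at 0.20 to 0.98 in depleted livers. Gata4 also separated, at -0.33 to 0.99 in controls and -1.81 to -0.86 in depleted livers. Stab2 was at 2.22 to 2.36 in controls and 1.61 to 2.06 in depleted livers, so it too was lower per endothelial signal in all 4, although its CPM overlapped, and it lay below the controls in the 3 hepatectomised livers as well, at 1.75 to 2.06. Oit3 lay at 1.10 to 1.21 in 5 controls and 0.12 in control 6, against -0.26 to 0.23. Mrc1 moved the other way, from 1.25 to 2.27 in controls to 2.51 to 2.91. Stab1, Fcgr2b, F8, Lyve1 and Dnase1l3 overlapped between the groups on this scale. Among all genes on this relative scale, 17.4% lay below every control in all 4 depleted livers and 7.14% above, so the 3 of 10 members below (Clec4g, Stab2 and Gata4) and the 1 of 10 above (Mrc1) are to be read against those shares. These are descriptions, since the denominator itself changed between the groups.

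**Figure D3:**
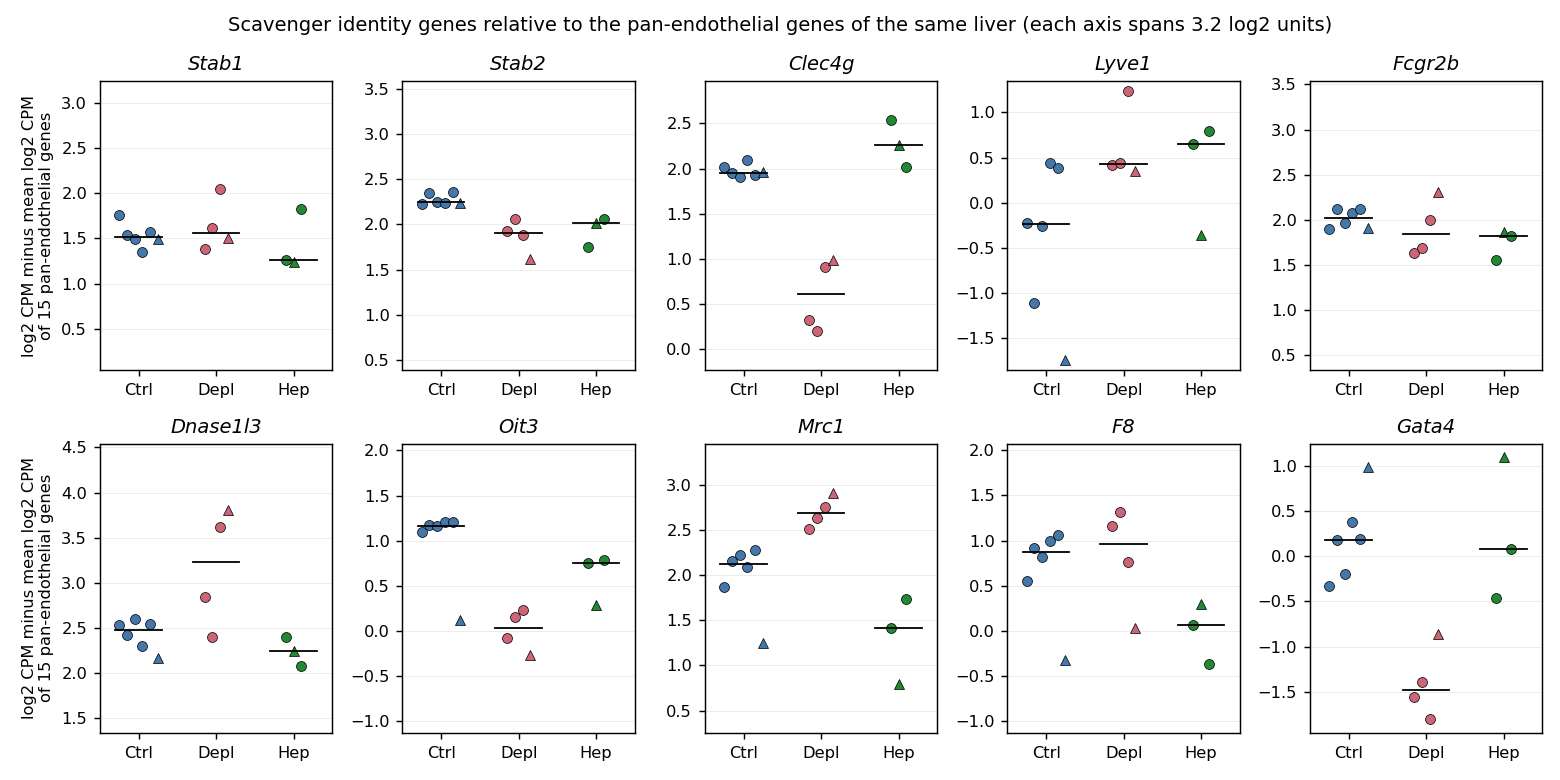
Log2 CPM of each scavenger identity gene minus the mean log2 CPM of 15 pan-endothelial genes in the same liver, for 6 control (Ctrl), 4 depleted (Depl) and 3 hepatectomised (Hep) livers; lines are medians, triangles mark control 6, depleted 4 and hepatectomised 2, and every axis has the same span. Control 6 falls among the other controls for Clec4g and Stab2, and the depleted livers lie below the controls for Clec4g, Stab2 and Gata4 and above them for Mrc1. Of all genes on this scale, 17.4% lie below and 7.14% above the controls in the same way.

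The ratio of Clec4g to Stab2, both per kilobase, was 2.64 to 3.23 in the 6 controls, 0.984 to 2.29 in the 4 depleted livers and 3.46 to 6.14 in the 3 hepatectomised livers. The 3 groups did not overlap and control 6 fell within the range of its group. Mrc1 per Stab2 was 0.691 to 1.35 in controls, 2.05 to 3.37 in depleted and 0.588 to 1.10 in hepatectomised livers. Of the ratios of other members to Stab2, that of Lyve1 also separated controls (0.206 to 0.968) from depleted livers (1.10 to 2.15). Those of Dnase1l3, Gata4, Oit3, Stab1, F8 and Fcgr2b overlapped between these groups. The Clec4g and Mrc1 ratios were picked after their values were seen, and none of the ratios carries a test.

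Other cells that express some of these genes also moved with depletion. Kupffer cell genes had 5 of 10 called higher and 0 lower, and their summed level was 1277 to 2329 CPM in depleted livers and 516 to 838 CPM in controls. Without C6, a complement gene of the list with 23.0 to 486 CPM in single controls, the sum was 1213 to 2230 CPM against 75.9 to 613 CPM. Monocyte and recruited macrophage genes, 5 of 9 called higher, summed to 480 to 888 CPM against 88.9 to 220 CPM. Dendritic cell genes, 4 of 7 called higher and 1 lower, summed to 27.3 to 86.8 CPM against 5.94 to 11.6 CPM. Of the 10 Kupffer cell genes, 7 had positive estimates, and those of Clec4f (-3.00), Vsig4 (-0.88) and Folr2 (-0.12) were below 0 and not called with all libraries. Without both low libraries 6 of the 10 were called higher and 1 lower. Clec4f, the lectin that defines resident Kupffer cells, was at 0.236 to 69.5 CPM with a median of 2.81 in depleted livers and 20.3 to 165 CPM in controls. Its highest depleted value was that of depleted liver 4, at 3200% of the median of the other depleted livers. The part of macrophages in the Mrc1, Lyve1 and Dnase1l3 levels, and that of lost stellate cells in the Gata4 level, was not tested.

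Among further sinusoidal endothelial genes, 1 of 15 was called higher and 2 lower. Rspo3, a Wnt enhancer of the central vein niche, fell by 2.13 ± 0.34 on the log2 scale (adjusted p = 0.000398), from 2.58 to 8.77 CPM in controls to 1.05 to 1.97 CPM. Ehd3, an endocytic recycling protein of these cells, fell by 1.43 ± 0.50 (adjusted p = 0.043), and the lysosomal protease Lgmn rose by 1.46 ± 0.30. Of 8 capillary and large-vessel genes, 3 rose, among them the junction gene Cldn5 (1.38 ± 0.33) and Ly6a (4.54 ± 0.50), and the matrix gene Ltbp4 fell by 4.63 ± 0.51. Of 5 lymphatic endothelial genes 0 were called higher and 1 lower, Reln, which is also a stellate cell gene.

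Other routes of clearance were measured alongside. Of 5 Fc gamma receptor genes 4 rose, and Fcgrt, the neonatal Fc receptor, was at -0.03 ± 0.16. Of 14 other scavenger and clearance receptors 5 rose and 0 fell, and those 5 (Marco, Clec4a3, Clec4n, Cd163 and Msr1) are genes of macrophages and other myeloid cells. Among hyaluronan turnover genes, 5 of 9 passed the filter, and Cd44, the leukocyte hyaluronan receptor, rose by 2.39 ± 0.43.

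In the BMP9 pathway, the ligand genes fell with the stellate cell genes, of which 10 of 10 were called lower. Gdf2 stood at 0.0175 to 3.39 CPM in depleted livers, with depleted liver 4 the highest, and 11.1 to 32.8 CPM in controls (log2 difference -5.12 ± 0.92, adjusted p = 0.00114). Bmp10, a second ligand of the same receptor, had 0 counts in all 4 depleted livers and a control mean of 1.35 CPM, and was at least 20-fold lower against a floor of 3 counts per library. The receptor gene Acvrl1 rose by 2.72 ± 0.34 (16.3 to 25.3 against 0.780 to 3.97 CPM), and the inhibitory Smad6, a known target of the pathway, fell by 1.52 ± 0.21. In all, 1 of 11 genes of the pathway was called higher and 4 lower, with a median of -0.43.

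Of 11 regulators of endothelial identity, 4 were called higher and 1 lower. The flow-responsive factor Klf2 rose by 1.56 ± 0.26 and Tfec, which macrophages also express, by 2.68 ± 0.37. Nr2f2, the venous identity factor COUP-TFII, fell by 1.19 ± 0.19, from 35.2 to 68.7 CPM in controls to 16.3 to 24.0 CPM. Gata6, the paralog of Gata4, was at 4.79 to 10.3 CPM against 4.18 to 6.83 CPM (0.56 ± 0.27, adjusted p = 0.132).

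**Figure D4:**
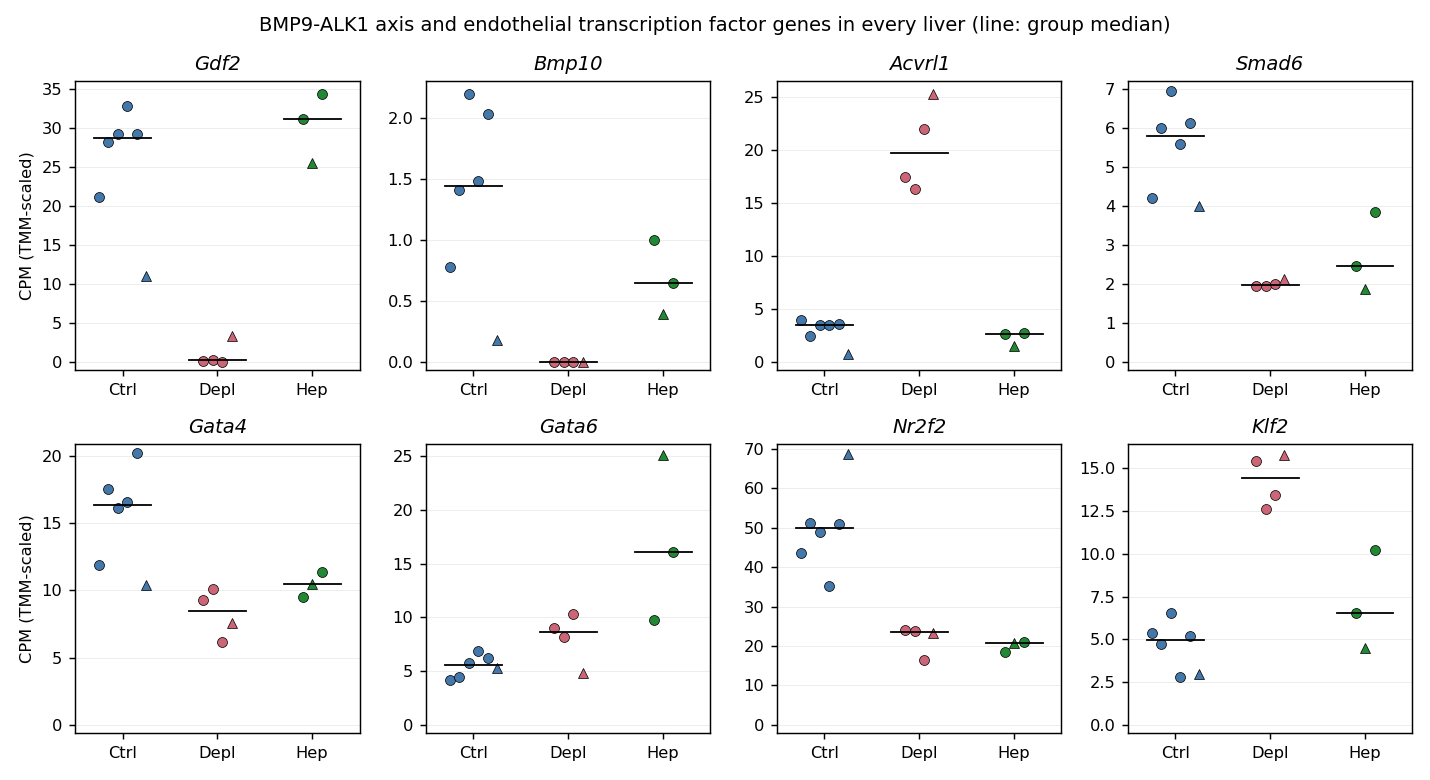
TMM-scaled CPM of 4 genes of the BMP9 pathway (top) and 4 transcription factor genes (bottom) in each control (Ctrl), depleted (Depl) and hepatectomised (Hep) liver; lines are group medians and triangles mark control 6, depleted 4 and hepatectomised 2. Gdf2 and Bmp10 are near 0 in depleted livers and present after hepatectomy, Acvrl1 and Klf2 are high in depleted livers, and Nr2f2 is low in both.

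At 72 h after partial hepatectomy, 0 of 10 scavenger identity genes passed the edgeR test against control, where 8.42% of all genes did. At an unadjusted p under 0.05 there were 2 (Fcgr2b and Gata4), and DESeq2 and limma-voom each called 0, with 5 and 1 at an unadjusted p under 0.05. The estimate was negative for 9 of the 10, with Lyve1 the exception, and the median log2 difference was -0.78, beside -0.58 for the pan-endothelial genes (0 of 15 called) and -0.02 for all genes. Depleted and hepatectomised livers were each set against the same 6 controls.

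Fcgr2b stood at 38.7, 17.8 and 38.4 CPM in hepatectomised livers 1 to 3, below 5 of the 6 controls, and its log2 difference was -0.81 ± 0.35 (adjusted p = 0.181). It passed without control 6 (-1.01 ± 0.24, adjusted p = 0.0301, 2.1% of all genes called lower) and without both low libraries (-0.76 ± 0.18, adjusted p = 0.0467, 0.568% called lower). Mrc1 was at 34.9, 8.51 and 36.0 CPM (-1.10 ± 0.52, adjusted p = 0.218). F8 was at 13.7, 6.01 and 8.33 CPM and had the most negative estimate of the 10, with a wide error (-1.28 ± 0.61, adjusted p = 0.222). B cell genes, which mark another source of Fcgr2b, had 3 of 7 called lower and a median of -0.80. With the replicate block 1 of 7 was called lower, and without both low libraries 1 of 7 (median -0.37). Their part in the Fcgr2b level was not tested.

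Stab1 was at 31.5, 11.6 and 38.2 CPM and Stab2 at 44.0, 19.9 and 45.02 CPM after hepatectomy. The Stab2 difference of -0.86 ± 0.40 (adjusted p = 0.214) became -1.26 ± 0.28 (adjusted p = 0.0489) with the replicate number as a block, where 1.24% of all genes were called lower. Dnase1l3 stood at 69.6, 23.3 and 45.6 CPM (-0.75 ± 0.45) and Oit3 at 22.1, 5.98 and 18.7 CPM (-0.91 ± 0.55). Gata4 was at 9.49, 10.5 and 11.4 CPM, near the lower end of the controls (-0.48 ± 0.18, adjusted p = 0.123).

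Clec4g spread widely after hepatectomy, from 76.0 CPM in liver 1, above every control, to 23.5 CPM in liver 2 and 43.8 CPM in liver 3. Its log2 difference was -0.19 ± 0.39 (95% interval -1.04 to 0.65). Lyve1 was at 20.6, 3.79 and 18.8 CPM (0.32 ± 0.65). Relative to the pan-endothelial genes, Stab2 (1.75 to 2.06) and Fcgr2b (1.56 to 1.86) lay below every control after hepatectomy, where controls were at 2.22 to 2.36 and 1.90 to 2.12, as did 0.289% of all genes on this scale. Hepatectomised liver 2 had the lowest mean log2 CPM of the pan-endothelial genes, at 2.30, where controls were at 2.40 to 4.21. Genes that do not fall with that mean are raised in this liver on this scale. The 0.289% is therefore no measure of how often endothelial genes separate, and these values are descriptions. Clec4g lay at 2.02 to 2.53 and F8 at -0.37 to 0.30, both overlapping the controls.

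Around them, Gdf2 was at 25.5 to 34.3 CPM after hepatectomy (0.47 ± 0.75, adjusted p = 0.756), and stellate cell genes had 0 of 10 called. In the BMP9 pathway 1 of 11 genes fell, Smad6 (-0.96 ± 0.23, adjusted p = 0.0231). It also passed without control 6 (-1.02, adjusted p = 0.0275). The Smad6 call was lost with the replicate block (-1.07, adjusted p = 0.0672) and without both low libraries (-0.86, adjusted p = 0.0862). Among the regulators, Nr2f2 fell by 1.31 ± 0.20 (adjusted p = 0.00342) and Gata6 rose by 1.65 ± 0.29 (adjusted p = 0.00584), with Gata6 at 9.79 to 25.1 CPM. With the block Nr2f2 still passed (adjusted p = 0.0181) and Gata6 did not (1.59, adjusted p = 0.0682). Gata6 passed without control 6 (1.65, adjusted p = 0.0152) and without both low libraries (1.25, adjusted p = 0.0447). The capillary marker Cd34 was the 1 of 8 capillary and large-vessel genes called, and it rose by 1.41 ± 0.38, whereas with the block 0 of these 8 were called higher and 1 lower. Without control 6, 1 of the 8 was called higher and 2 lower.

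Set directly against each other, depleted livers were higher than hepatectomised livers for 4 of the 10 genes, against 13.3% of all genes called higher and 23.4% called in either direction, and lower for 0. The log2 difference was 2.28 ± 0.58 for Mrc1 (adjusted p = 0.0145), 2.09 ± 0.51 for Dnase1l3 (adjusted p = 0.0111), 2.04 ± 0.68 for F8 (adjusted p = 0.0483) and 1.26 ± 0.38 for Fcgr2b (adjusted p = 0.0324). The lowest depleted liver was above the highest hepatectomised liver for these 4 and for Stab1 (39.6 against 38.2 CPM), 5 of 10 in all, as it was for 18.1% of all genes. By adjusted p, 6 of 15 pan-endothelial genes were called higher, with a median of 1.12 beside 1.23 for the scavenger identity genes. Pan-endothelial genes also separated by lowest depleted against highest hepatectomised liver, as did Pecam1 (38.3 against 24.5 CPM) and Robo4 (14.5 against 8.75 CPM). Others, such as Clec14a (6.06 against 12.5 CPM), overlapped. Among genes of other cells that express Mrc1 or Fcgr2b, 6 of 7 B cell genes (median 3.33), 1 of 10 Kupffer cell genes (1.71), 5 of 9 monocyte and recruited macrophage genes (2.17) and 4 of 5 Fc gamma receptor genes (2.94) were called higher. Without control 6, or with the block, 4 of 10 Kupffer cell genes were called higher. Of the dendritic cell genes, 4 of 7 were called higher and 1 lower (median 3.22). The part of all these cells in the differences was not tested. All 4 calls were lost without depleted liver 3, where the log2 difference was 1.98 for Mrc1 (adjusted p = 0.084), 1.69 for Dnase1l3 (0.0854), 1.98 for F8 (0.152) and 1.03 for Fcgr2b (0.17). They were lost as well without hepatectomised liver 3, at 2.38 for Mrc1 (adjusted p = 0.053), 2.01 for Dnase1l3 (0.0547), 1.69 for F8 (0.184) and 1.31 for Fcgr2b (0.0962). Depleted liver 3 is the only male depleted liver and hepatectomised liver 3 the only female hepatectomised one. Each of these fits therefore leaves a group without both sexes. Calls among all genes also fell from 3236 to 1709 without depleted liver 3. F8 passed in only 3 of the 13 fits that left out 1 library, and missed the threshold with limma-voom (0.0866), with only these 2 groups fitted (0.0649) and with no low-count filter (0.0731). Fcgr2b also missed the threshold without depleted liver 1 (0.0543), depleted liver 2 (0.051) or hepatectomised liver 2 (0.102).

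Without control 6 and hepatectomised liver 2, Stab1 joined the higher genes (1.03 ± 0.31, adjusted p = 0.0343) and Clec4g was lower in depleted livers (-0.77 ± 0.20, adjusted p = 0.0206), in a setting where 12.3% of all genes were called higher and 8.15% lower. Stab1 and Stab2 were also called higher without control 6 (adjusted p = 0.0243 and 0.0344) or depleted liver 4 (0.0327 and 0.0326) and with DESeq2 (0.0212 and 0.046), and Gata4 lower without control 2 (-0.59, adjusted p = 0.0343). With all libraries Clec4g was at -0.55 ± 0.42 in this comparison (adjusted p = 0.384), and without hepatectomised liver 1, where it was highest, at -0.027 (adjusted p = 0.972).

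Sex was a term of the model. Between male and female livers 0 of 10 scavenger identity genes were called, as were 1.03% of all genes, and 1 (Gata4) had an unadjusted p under 0.05. DESeq2 and limma-voom each called 0. The log2 difference of males from females was -0.39 ± 0.15 for Gata4 (adjusted p = 0.313) and lay between -0.57 and -0.07 for the other 9.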

How the data were processed

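Whole-liver RNA was extracted with TRIzol and 500 ng per liver went into stranded TruSeq mRNA libraries run over a pair of flowcell lanes, per the labels' protocols. The authors deposited 1 table of raw counts (reads assigned to each gene) and gene lengths, and the submitters' processing notes name STAR 2.7.1a, SAMtools 1.15.1, featureCounts 1.6.4 and the mm10 build without settings, so the treatment of shared and antisense reads is not given in the sources used here. Symbols were matched for 21741 of 22048 gene identifiers. Counts were filtered with filterByExpr and tested in edgeR 4.0.16 by quasi-likelihood (R 4.3.3, TMM scaling, robust fit, F statistic) on group plus sex over all 13 libraries, with two-sided p-values adjusted by Benjamini-Hochberg over all 13831 genes tested and a threshold of 0.05. The common biological coefficient of variation was 31.4%. CPM values are TMM-scaled, RPKM divides them by gene length, and a prior count of 2 went into log2 CPM. The floor of 3 counts lay between 0.0524 and 0.09 CPM across the libraries, and floors cover counting error only. The test was also run on simulated counts, and the outcome is not given here.

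The scavenger identity genes and all gene lists were chosen with earlier results of these data known. From each list, up to 4 genes called against control by lowest adjusted p, the most abundant gene, and Clec4f, Lrat and Fcgr3 could be named. Pecam1, Gata6, Msr1, Clec14a, Eng, Ptprb, Tek, C6, Vsig4 and Folr2 fall outside this rule and were named after their values were seen. The list of endocytic and lysosomal genes is not reported here. Alternatives were the sex term, the libraries fitted, scaling, filter, DESeq2 1.42.0, limma-voom 3.58.1, a replicate block and leaving out libraries. The block gives no weight to controls 5 and 6, whose replicate numbers occur in no other group, so it overlaps with leaving out control 6. Within groups, pairs of libraries differed by more than counting noise (lowest median chi-square per gene 4.60), so none was counted as a second deposit of another. This does not show that they came from separate livers; the labels list each as its own sample. Replicate numbers come from the labels. Same-numbered control and hepatectomised livers deviated together from their group means (r across genes 0.11 to 0.52 in 3 pairs, -0.19 to 0.08 after sex was removed, and same-numbered livers there share sex). Differently numbered pairs of these groups ran from -0.48 (control 3 with hepatectomised 2) to 0.47 (control 6 with hepatectomised 2). The 4 same-numbered control and depleted pairs gave -0.34 to 0.07, or -0.10 to 0.42 after sex was removed, and were not taken as paired.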

Additional observations from a re-analysis of the deposited data

Results flagged for a closer look

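Within groups of 4 or more livers, 20 gene and group combinations were examined for a single liver far from the rest by Dixon's ratio of gap to range, and 3 passed the 95% critical value, where chance flags about 5%. Clec4g in control 6, at 20.5 CPM, had a ratio of 0.696. Oit3 in the same liver, at 5.70 CPM, had a ratio of 0.667. Fcgr2b in depleted liver 4, at 69.2 CPM, had a ratio of 0.885 because the other 3 depleted livers lay between 85.2 and 87.3 CPM.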

How the results depend on the processing

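Called genes against control after hepatectomy numbered 1164 and became 2192 with library size alone, 1939 with DESeq2, 632 with the replicate block and 412 without control 6 and hepatectomised liver 2, an alternative added after the data were seen, and 483 to 1458 when single libraries were left out. Scavenger identity genes called lower there went from 0 to 1 with library size alone (Gata4, -0.70), the block and both libraries left out, and were 0 to 1 with single libraries left out. In depleted against control livers, 4692 genes were called, 2726 in females alone and 2960 to 4928 with single libraries left out. Scavenger identity genes called higher there numbered 1, and 2 without the sex term, with only the 2 groups fitted, with library size alone or in females, 3 with DESeq2 or without both low libraries, and 0 to 3 with single libraries left out. Those called lower numbered 1, and 2 with the block, in females or without both low libraries, and 1 to 2 with single libraries left out. Depleted against hepatectomised livers gave 3236 calls, 2105 with only the 2 groups fitted and 1709 to 3850 with single libraries left out. There, 0 to 6 scavenger identity genes were higher and 0 to 1 lower with single libraries left out, and 1 was lower without both low libraries. Stab1 and Stab2 were also called higher there with the replicate block (1.58, adjusted p = 0.0118, and 1.25, adjusted p = 0.0177) and with library size alone (1.66, adjusted p = 0.023, and 1.40, adjusted p = 0.031). The sex term called 142 genes, 410 with DESeq2, 72 with the block, 80 without both low libraries and 84 to 269 with single libraries left out.

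Estimates that changed sign were not called in any of these fits. With the replicate block, Lyve1 after hepatectomy was -0.10 and Stab2 in depleted livers -0.006, and the sex estimates of Clec4g and Dnase1l3 were 0.11 and 0.26. Without both low libraries the sex estimates were 0.25 for Clec4g, 0.26 for Dnase1l3, 0.034 for Oit3 and 0.13 for Stab1. With single libraries left out, the hepatectomy estimates ran from -0.74 to 0.11 for Clec4g and from -0.29 to 0.71 for Lyve1, and the sex estimates from -0.27 to 0.13 for Clec4g and from -0.36 to 0.13 for Dnase1l3. The cause was not tested. Library size alone moved the median of all genes to 0.08, -0.24 and 0.27 in the depleted, hepatectomy and depleted against hepatectomy comparisons, and the share of calls that were higher from 55.7% to 66.2%, 72% to 28.6% and 56.8% to 83.6%.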
